A study of Rattus norvegicus with 15 samples.

Results

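Arteries of rats with 3-vessel occlusion (3VO) that had lasted 3 d were compared with arteries of intact rats, which is the joint later response to surgery and to the occlusion. The arrays were chosen by their source labels, which gave 3 arrays for 3VO at 3 d and 3 for intact controls, 6 of the 15 arrays of the series. RNA came from the ipsilateral posterior cerebral artery of Sprague Dawley rats of 7 weeks and 300 to 350 g, with the arteries of 8 rats pooled for each Affymetrix Rat230A array. In 3VO both vertebral arteries were electrocoagulated and the left common carotid artery was tied, under isoflurane with buprenorphine. Intact rats are described with neither an operation nor anaesthesia or analgesia, so these cannot be told apart from the occlusion in this comparison. Sham rats at 3 d, in which the same vessels were exposed and left untouched, and 3VO rats at 24 h were used for values set side by side. All 5 groups had 3 arrays and were perfused with latex and the vasodilator papaverine before the artery was dissected. The treatment text of 3VO replicate 1 at 3 d leaves out the postoperative buprenorphine described for the other two arrays, and that of sham replicate 1 at 3 d describes the occlusion. The labels speak of repeated hybridisation, so that p-values measure the spread between arrays, which may be partly technical.

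The posterior cerebral artery becomes a collateral route to the forebrain when the vertebral and carotid arteries are closed. Growth of such collaterals is known to involve monocytes that are drawn to the vessel wall by chemokines, breakdown and rebuilding of matrix by proteases and their inhibitors, and division of cells of the wall. Surgery by itself is known to raise acute phase and inflammatory genes.

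Medians of the deposited array signal ran from 2553.4 to 2938.4 over the series. Smooth muscle genes that define an arterial wall were measured on all 6 arrays. The actin Acta2 lay at 31346, 60379.7 and 52630.5 on intact replicates 1 to 3 and at 32732, 46473 and 44673 after 3VO at 3 d. Genes of adjoining brain tissue were measured as well. The synaptic gene Snap25 lay at 124806, 69581 and 37834 on intact arrays and at 31254, 17931 and 51631 after 3VO. The choroid plexus gene Ttr lay at 22892, 282179 and 189034 on intact arrays and at 11006, 9354 and 165830.4 after 3VO. Both overlapped between the groups. The astrocyte gene Gfap (log2 difference 0.23) and the myelin gene Mbp (-0.15) differed by less than their intervals of -0.26 to 0.73 and -0.86 to 0.56. Other astrocyte markers went the other way from Gfap, with 14 of 19 lower and a list median of -0.23. That median ran from -0.40 to 0.04 with any array left out. Summed over the 43 measured neuron markers, the signal ran from 290279 to 825807 on intact arrays and from 177394 to 382290 after 3VO, and no marker was listed at 0.

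Of 15737 probe sets tested, 35 passed limma's test at an adjusted p under 0.05 (0.222% of all), 33 higher (0.21%) and 2 lower (0.0127%) after 3VO at 3 d. They stand for 28 single genes, 3 probe sets annotated to several genes and 3 with no gene. By their known roles, the higher genes included secreted proteins (Timp1, Crispld2, Pla1a, A2m, Cp, Matn2, C1s, Esm1), the monocyte chemokine Ccl2, genes active in macrophages (Gpnmb, Fcgr2b, F13a1) and genes of dividing cells (Mki67, Cks2, Cdca3). The groups of 3 arrays did not overlap in any of the 35. Over all probe sets 1624 (10.3%) were higher with no overlap and 804 (5.11%) lower with no overlap. An unadjusted p under 0.05 was found for 2032 (12.9%), and the median log2 difference of all probe sets was 0.07. Of 10360 genes with 1 probe set each, as used for the lists, 5745 were higher and 4615 lower. Among these genes 21 passed as higher and 1 as lower, and 825 were higher and 524 lower at an unadjusted p under 0.05. The count of 35 was unstable, at 0 without 3VO replicate 2, 258 without intact replicate 3 and 0 with a neuron marker covariate, while each of the 35 kept its sign in the alternative fits that tested it.

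**Figure D1:**
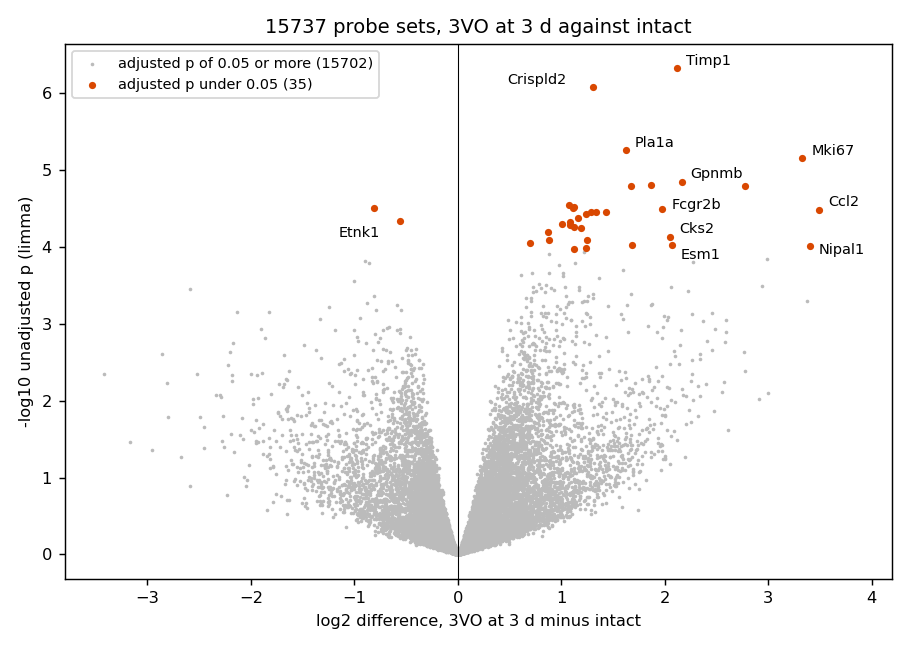
Log2 difference (3VO at 3 d minus intact, on the log2(signal + 16) scale) against -log10 of limma's unadjusted p for 15737 probe sets. Orange points are the 35 probe sets with an adjusted p under 0.05, of which 33 lie right of 0 and 2 left of it.

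Timp1, a secreted inhibitor of matrix metalloproteinases, had the smallest p of all probe sets. Its signal was 13245, 8328 and 18022 on intact replicates 1 to 3 and 45062, 67169.8 and 53962 on 3VO replicates 1 to 3 at 3 d. The lowest 3VO array stood far above the highest intact array. The rise was 4.34-fold (log2 2.12, 95% interval 1.58 to 2.65, limma adjusted p = 0.00659), and it passed in 27 of the 31 alternative fits. The sham arrays of 3 d stood at 15921, 17319.8 and 16329, inside the intact range, and 3VO arrays at 24 h at 106956, 136845 and 72983, all above those of 3 d. Against sham at 3 d the log2 difference was 1.73 (1.19 to 2.26, adjusted p = 0.0869), and against 3VO at 24 h it was -0.90 (-1.44 to -0.37, adjusted p = 0.701).

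A2m, a broad protease inhibitor and acute phase protein, had signals of 8778, 8933 and 10214 on intact arrays and 29388, 20776 and 21239 after 3VO. It rose 2.53-fold (log2 1.34, 0.85 to 1.83, limma adjusted p = 0.0321). After sham surgery at 3 d it ran from 8100.5 to 17708, from below the intact arrays to above them, and stayed under the 3VO arrays. Pla1a, a phospholipase acting on phosphatidylserine, rose 3.08-fold, from 3962 ± 1056 to 12093 ± 2317 (SD, n = 3 arrays each). Its mean was 5006 ± 1351 after sham surgery at 3 d and 18920.4 ± 3737 after 3VO at 24 h. Ceruloplasmin, the copper-carrying ferroxidase, passed by 1 of its probe sets (1368420_at, log2 1.86, adjusted p = 0.0317), chosen after its values were seen, which went from 7181 ± 1745 to 27357 ± 12174. Its brightest probe set did not pass (Cp, log2 1.45, adjusted p = 0.102). Crispld2, a secreted protein chosen in the same way, passed by probe set 1387922_at at 17807 ± 3388 against 7153 ± 1158 (log2 1.31, adjusted p = 0.00659). The brighter Crispld2 probe set overlapped between groups (log2 0.63, adjusted p = 0.33), so its probe sets disagree. Of 25 measured acute phase genes, 1 passed and 7 (28%) were higher with no overlap against 10.1% over all genes, with a median log2 difference of 0.39 against 0.05 over all genes. The list's median was 0.38 for sham at 3 d minus intact and 0.02 for 3VO minus sham at 3 d. Stat3, the transcription factor downstream of interleukin-6 receptors, lay just outside the threshold (log2 1.13, adjusted p = 0.0603), with 10836 ± 1912 after 3VO and 11524 ± 2094 after sham surgery at 3 d. The further Stat3 probe set overlapped between groups (log2 0.13, adjusted p = 0.861). Lbp, which binds bacterial lipopolysaccharide, had a log2 difference of 1.68 (adjusted p = 0.093) and Lcn2 one of 1.36 (adjusted p = 0.162). Complement C3 stood at 6684 ± 1099 after 3VO at 3 d and 7806 ± 1439 in intact arteries, with 18803 ± 3739 after 3VO at 24 h.

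Among 23 measured protease inhibitors, Timp1 and A2m were the 2 that passed, against 21 higher of 10360 genes. With no overlap 5 (21.7%) were higher and 2 (8.7%) lower, against 10.1% and 5.61% over all genes. The list's median log2 difference was 0.22, which became -0.04 with the neuron covariate. Serping1, the inhibitor of complement protease C1s, differed by 0.96 (adjusted p = 0.133) and Cst3, an inhibitor of cathepsins, by -0.09. None of 31 proteases passed, where few of all genes did, and 5 (16.1%) were higher and 1 (3.23%) lower with no overlap. The membrane-bound collagenase Mmp14 had the smallest p of them, with 23513 ± 1625 against 14601 ± 2945 (log2 0.71, adjusted p = 0.0979) and 22924 ± 2911 after sham surgery at 3 d. The matrix-degrading cathepsin Ctsk differed by 0.93 (adjusted p = 0.25).

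**Figure D2:**
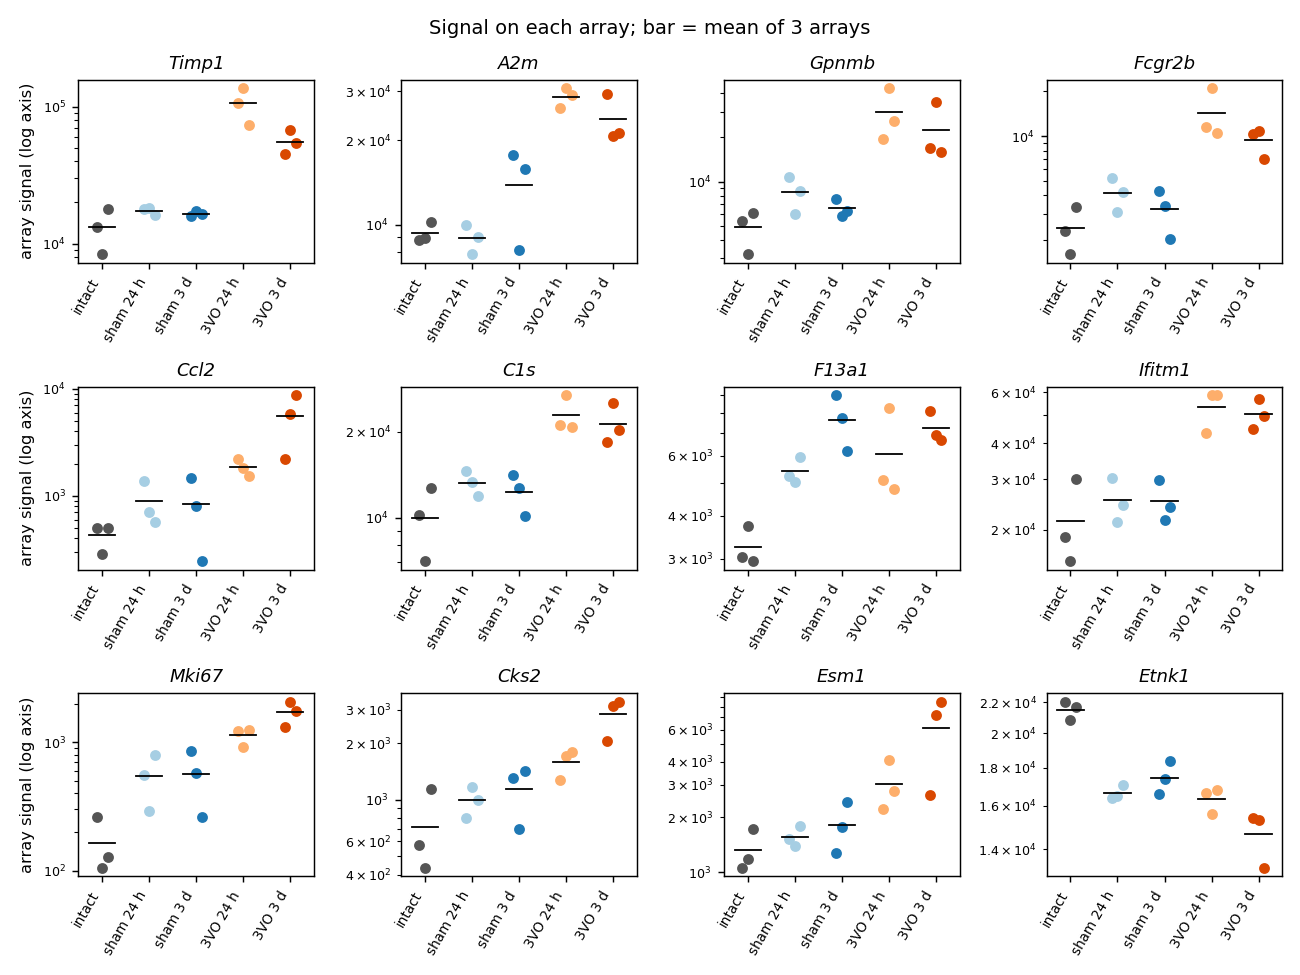
Signal of 12 genes on each of the 15 arrays, on log axes that differ between panels. Points are arrays and bars are means of 3 arrays. Timp1 on 3VO arrays at 3 d (45062 to 67169.8) lies above the sham arrays at 3 d, while F13a1 on both (6657 to 8113 and 6182 to 9035) covers a common range.

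Ccl2, the chemokine that draws in monocytes, showed the largest rise among the genes that passed with a mean signal of 1000 or more. Intact arrays read 496, 286 and 502, and 3VO arrays at 3 d 2189.6, 5877 and 8803. Every 3VO array lay above the intact arrays, with replicate 1 the lowest. The rise was 11.3-fold (log2 3.49, 2.22 to 4.77, limma adjusted p = 0.0321). Signals of 1472, 807 and 244 were read after sham surgery at 3 d, and 3VO arrays at 24 h read 2208, 1837 and 1525. The difference to either was not past the test (log2 2.83, adjusted p = 0.524, and 1.39, adjusted p = 0.845). Tnfrsf1a, the main receptor of tumour necrosis factor, was chosen after its values were seen and rose 1.63-fold, from 8285 ± 417 to 13469 ± 455 (adjusted p = 0.0459). Sham surgery at 3 d gave 12136 ± 1968. These were the 2 of 36 measured chemokine, cytokine and adhesion genes to pass, and 8 (22.2%) were higher with no overlap against 10.1% over all genes. The median was 0.44, or 0.25 with the neuron covariate. The adhesion molecule Vcam1 (log2 0.53, adjusted p = 0.185) and the shared cytokine receptor chain Il6st (0.56, adjusted p = 0.114) did not pass.

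Among macrophage genes, Gpnmb and Fcgr2b rose. Gpnmb, a glycoprotein of lipid-laden macrophages, read 5418, 3176 and 6123 on intact arrays and 17057, 34938 and 15975 after 3VO at 3 d, a 4.47-fold rise (log2 2.16, 1.43 to 2.89, limma adjusted p = 0.0317). Fcgr2b, the inhibitory antibody receptor, read 2304, 1608 and 3369 and then 10289, 10783 and 6979.6, a 3.94-fold rise (adjusted p = 0.0321). For both, every 3VO array lay above every sham array at 3 d, which ran from 5828 to 7584 for Gpnmb and from 2048 to 4285 for Fcgr2b. The differences to sham were 1.69 (0.96 to 2.42, adjusted p = 0.524) and 1.56 (0.84 to 2.28, adjusted p = 0.533) on the log2 scale and did not pass over all probe sets. At 24 h after 3VO the means were 29662 ± 12434 for Gpnmb and 14295 ± 5826 for Fcgr2b.

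Of 27 measured macrophage markers 26 were higher, 2 passed and 12 (44.4%) did not overlap, against 10.1% over all genes, with a median log2 difference of 0.65. The lysosomal Cd68 went from 4429 ± 1669 to 7686 ± 1126 (log2 0.84, adjusted p = 0.145), with 4186 ± 869.6 after sham surgery at 3 d. The signalling adaptor Tyrobp differed by 0.64 (adjusted p = 0.133). The summed signal of the list ran from 418815 to 621147 on intact arrays and from 592715 to 697417 after 3VO, so these sums overlapped through intact replicate 3. In pooled arteries more cells of a type and more RNA per cell cannot be told apart. The median was 0.39 with the neuron covariate and lay between 0.47 and 0.89 when any single array was left out.

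Complement genes overlap with the macrophage list through C1qa, C1qb and C1qc. C1s, the protease that starts the classical cascade, read 10240.0, 7022 and 12698 on intact arrays and 18348, 25217 and 20290.0 after 3VO at 3 d, a 2.17-fold rise (log2 1.12, 0.69 to 1.55, limma adjusted p = 0.0356). All 3 sham arrays at 3 d, from 10122 to 14100.0, lay below the 3VO arrays. Of 17 measured complement genes, 1 passed and 9 (52.9%) were higher with no overlap against 10.1% over all genes, and the median was 0.76, or 0.47 with the neuron covariate. C1qb (log2 0.85), Serping1 (0.96) and the lectin pathway protease Masp1 (0.99) had adjusted p between 0.133 and 0.138.

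F13a1, the subunit of clotting factor XIII made by macrophages and platelets, rose over intact arteries and was as high on sham arrays. Intact arrays read 3022, 3739 and 2945, 3VO arrays at 3 d 8113, 6894 and 6657 and sham arrays at 3 d 9035, 7741 and 6182. The 3VO and sham ranges lay over each other, and both lay above the intact range. The rise over intact was 2.23-fold (log2 1.16, 0.73 to 1.59, limma adjusted p = 0.0348), and sham minus intact was 1.23 (adjusted p = 0.118). Between 3VO and sham at 3 d the log2 difference was -0.07 (-0.50 to 0.36). The further F13a1 probe set, 1369724_at, also passed (log2 1.24, adjusted p = 0.0435). Among other leukocyte markers, 5 of 16 lymphocyte genes (31.2%) and 2 of 10 neutrophil genes (20%) were higher with no overlap, against 10.1% over all genes, and none passed. Of 4 measured platelet genes 2 (50%) were higher with no overlap and 0 passed. The platelet median was 0.64, and 0.13 to 0.76 with any array left out. The neutrophil median was 0.33 and turned sign when single arrays were left out (-0.12 to 0.45). For 3VO minus sham at 3 d it was -0.40. The collagenase Mmp8 (log2 -1.70, adjusted p = 0.289) was the 1 neutrophil gene (10%) lower with no overlap, against 5.61% over all genes. The T cell coreceptor Cd4 differed by 0.67 (adjusted p = 0.159), while the killer cell receptor Klrb1a and the granzyme Gzmb stayed below a signal of 1000 on these arrays.

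Interferon and antigen presentation genes were higher in 32 of 33 cases, against 5745 of 10360 over all genes, with a median of 0.37. With no overlap 8 (24.2%) were higher, against 10.1% over all genes. Past the test was 1, against 21 higher of 10360 genes. Ifitm1, a membrane protein that restricts virus entry, read 18823, 15536 and 30102 on intact arrays and 44744, 57153 and 49859 after 3VO, a 2.44-fold rise (log2 1.28, limma adjusted p = 0.0321). The sham range at 3 d, 21644 to 29779.6, lay inside the intact range. The related Ifitm3 (log2 1.14, adjusted p = 0.133) and the myeloid transcription factor Irf8 (0.90, adjusted p = 0.185) did not pass. The list's median was 0.17 with the neuron covariate. For sham at 3 d minus intact the list's median was 0.41, and for 3VO minus sham at 3 d 0.08, so the list as a whole was as high after sham surgery.

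Mki67, a protein found in cycling cells, had low signals in intact arteries, at 264, 105 and 127, and read 1319, 2069 and 1746 after 3VO at 3 d. The groups were separated by a wide gap. The rise was 10-fold (log2 3.33, 2.27 to 4.38, limma adjusted p = 0.0277), and its size is loosely fixed because the intact signals are low. After sham surgery at 3 d it read 861, 578 and 261, reaching down to the intact range, and the difference of 3VO to sham was 1.70 (0.64 to 2.75, adjusted p = 0.756). Cks2, a small partner of cyclin-dependent kinases, read 576, 433 and 1134 on intact arrays and 2047, 3155 and 3317 after 3VO (log2 2.05, adjusted p = 0.0426). Cdca3, which promotes entry into mitosis, read 1477, 1289 and 1492 and then 2744, 3549 and 3492 (log2 1.19, adjusted p = 0.0356). For both, sham arrays at 3 d lay below all 3VO arrays, at 701 to 1416 for Cks2 and 1948 to 2229.5 for Cdca3.

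Cell cycle genes are often switched on together through CCAAT boxes and the cell cycle homology region (CHR) near their start. The 250 bases before the start of the 3 cell cycle genes that passed are shown for that reason, as RefSeq gives them on GRCr8, 5′ to 3′, with CCAAT and CHR (TTTGAA) matches on either strand in capitals. They lie at chr1:199952594-199952843 on the minus strand for Mki67, chr17:13727520-13727769 on the minus strand for Cks2 and chr4:159320953-159321202 on the plus strand for Cdca3.
Mki67: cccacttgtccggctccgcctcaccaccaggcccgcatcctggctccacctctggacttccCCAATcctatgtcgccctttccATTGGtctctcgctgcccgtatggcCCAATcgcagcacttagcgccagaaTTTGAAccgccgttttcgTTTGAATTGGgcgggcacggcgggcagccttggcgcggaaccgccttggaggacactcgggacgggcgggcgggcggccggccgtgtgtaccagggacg
Cks2: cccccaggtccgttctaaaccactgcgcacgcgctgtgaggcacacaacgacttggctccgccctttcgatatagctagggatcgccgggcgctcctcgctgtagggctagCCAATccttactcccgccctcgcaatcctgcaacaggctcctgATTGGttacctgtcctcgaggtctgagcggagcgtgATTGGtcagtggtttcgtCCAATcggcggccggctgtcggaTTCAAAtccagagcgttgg
Cdca3: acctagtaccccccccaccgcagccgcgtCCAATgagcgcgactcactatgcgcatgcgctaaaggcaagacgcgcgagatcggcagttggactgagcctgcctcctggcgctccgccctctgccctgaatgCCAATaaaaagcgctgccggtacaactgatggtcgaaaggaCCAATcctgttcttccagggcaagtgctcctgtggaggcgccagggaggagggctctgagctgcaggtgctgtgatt
The Mki67 window held 4 CCAAT and 2 CHR matches, and 1 CHR match overlapped a CCAAT match. The Cks2 window held 4 and 1, and the Cdca3 window 3 and 0. Of 33469 promoters of the same length, 34.0% held a CCAAT match, 16.2% a CHR match and 5.87% both. Among the 46 measured cell cycle genes, 37 had a single promoter entry, of which 28 held CCAAT and 14 CHR. A match describes the letters and not a bound site.

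Of those 46 genes 40 were higher after 3VO at 3 d, 3 passed and 20 (43.5%) were higher with no overlap against 10.1% over all genes, with a median log2 difference of 0.55. The mitotic kinesin Kif20a lay just outside the threshold, at 441, 1773 and 1399 against 94, 135 and 124 on intact arrays (log2 2.99, adjusted p = 0.0591). The list mean of each array, set against the intact mean, was 0.49, 0.85 and 0.90 after 3VO and between -0.04 and 0.03 on intact arrays. The median was 0.51 with the neuron covariate and between 0.49 and 0.62 with any array left out.

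**Figure D3:**
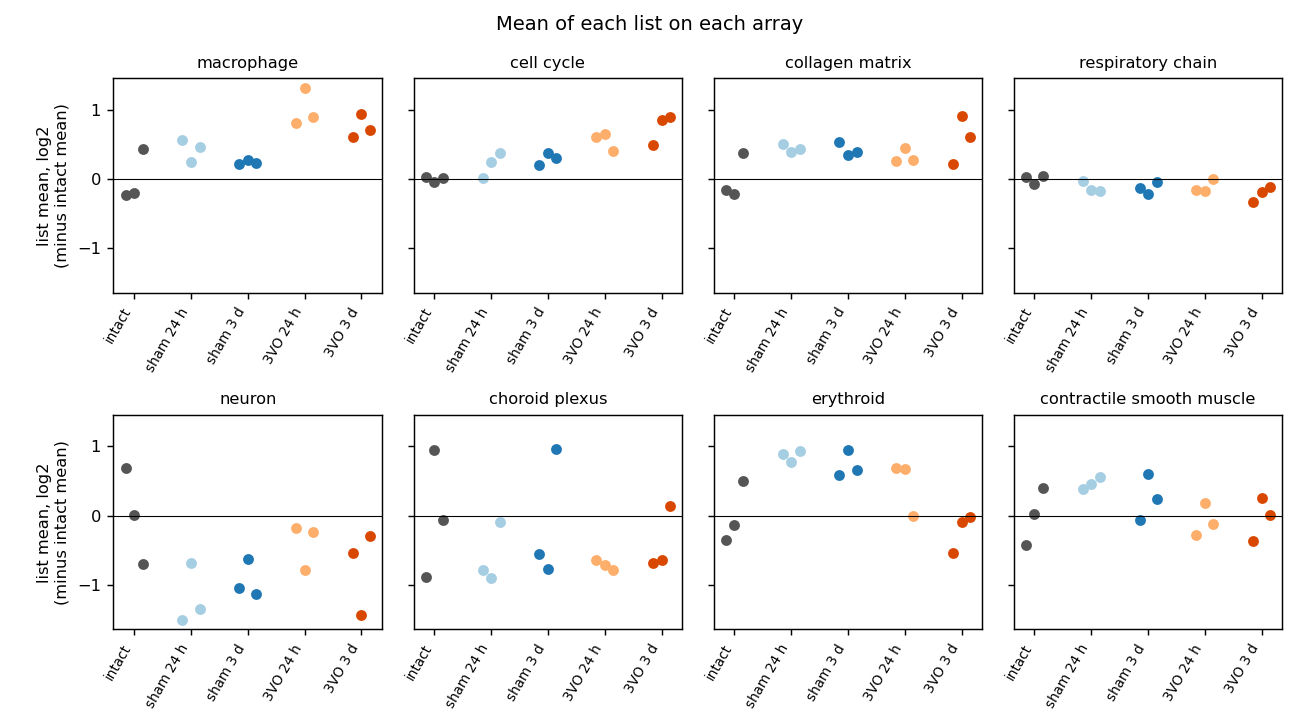
Mean log2 signal of 8 lists on each of the 15 arrays, set against the mean of the intact arrays. The cell cycle list lies between 0.49 and 0.90 on 3VO arrays at 3 d and near 0 on intact arrays, whereas the neuron list runs from -0.70 to 0.69 on intact arrays alone.

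None of the matrix genes passed singly, and most were higher. Of 38 collagen and matrix genes 34 were higher, 16 (42.1%) with no overlap against 10.1% over all genes, and 0 passed limma's test. At an unadjusted p under 0.05, 20 were higher and 0 lower, against 825 and 524 of 10360 genes. The median log2 difference was 0.48, or 0.37 with the neuron covariate. Col1a1, the main fibrillar collagen, read 33128, 40678 and 42356 on intact arrays and 65032, 74745 and 60151 after 3VO (log2 0.79, adjusted p = 0.0902). The sham range at 3 d, 63296 to 76278, overlapped the 3VO range, and the 3VO minus sham difference was -0.05 (-0.41 to 0.31). Col3a1 showed the like pattern, with 76266 ± 8034 after 3VO, 73397 ± 13939 after sham surgery and 45653 ± 10194 in intact arteries. The microfibril protein Fbn1 (log2 0.93, adjusted p = 0.0902) and Ltbp2, which binds to microfibrils (2.23, adjusted p = 0.0903), had 3VO arrays above all intact arrays. The cytokine of injured walls Spp1 read 12122 ± 4049 against 5001 ± 1879 and 25039 ± 12314 after 3VO at 24 h. Matn2, a filament-forming matrix adaptor outside the list, rose 2.12-fold, from 4882 ± 738 to 10427 ± 2059.7 (adjusted p = 0.0349), with 5458 ± 969.8 after sham surgery at 3 d. Of 15 basement membrane genes 14 were higher, 3 (20%) with no overlap against 10.1% over all genes, and 0 past limma's test. At an unadjusted p under 0.05, 6 were higher, against 825 of 10360 genes. The laminin chain Lamb1 (log2 0.82, adjusted p = 0.11) and the collagen Col4a1 (0.73, adjusted p = 0.142) were nearest to the threshold.

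Genes of the muscle layer and the endothelium showed little that was past the spread. Of 30 contractile genes 19 were lower, with a median of -0.11 whose sign turned when the array number was a covariate (0.18) and when single arrays were left out (-0.37 to 0.14). The smooth muscle myosin Myh11 read 43606, 90622 and 88815 on intact arrays and 55376, 77949.5 and 55478 after 3VO (log2 -0.18, -0.75 to 0.38), so intact replicate 1 lay below all others. Vinculin, Vcl, which anchors actin at adhesions, went the other way with no overlap, at 23404 ± 1905 against 12155 ± 1835 (log2 0.95, adjusted p = 0.108). Its sham mean at 3 d was 24061 ± 7571. The further Vcl probe set overlapped between groups (log2 0.38, adjusted p = 0.344). Tropomyosin Tpm3 passed by probe set 1371239_s_at (log2 1.11, adjusted p = 0.0321), chosen after its values were seen, while its brightest probe set differed by 0.46 (adjusted p = 0.294). Of 32 endothelial genes 1 (3.12%) was higher with no overlap, against 10.1% over all genes, and 0 passed limma's test. An unadjusted p under 0.05 was found for 3 (2 higher and 1 lower), against 825 higher and 524 lower of 10360 genes. The junction protein Pecam1 differed by -0.11 (-0.97 to 0.75) and the flow-induced factor Klf2 by 0.67 (0.14 to 1.20, adjusted p = 0.283). Esm1, a proteoglycan secreted by sprouting endothelium and outside that list, rose 4.19-fold (log2 2.07, limma adjusted p = 0.0459). It read 1057, 1182 and 1721 on intact arrays and 2639.5, 7212 and 8516 after 3VO, and the lowest 3VO array (replicate 1) was only a little above the highest sham array at 3 d, 2428.

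Growth factor and vascular tone genes did not pass singly. Of 42 growth factor genes 8 (19%) were higher and 2 (4.76%) lower with no overlap, against 10.1% and 5.61% over all genes. Fgf7, a growth factor for epithelial cells made by mesenchyme, lay nearest to the threshold at 1148, 931 and 1522 against 111, 346 and 314 on intact arrays (log2 2.27, adjusted p = 0.0603). Its sham arrays at 3 d, from 703 to 1569.7, covered the 3VO range. The transforming growth factor receptor Tgfbr3 differed by 1.01 (adjusted p = 0.0736), with 6526 ± 1029 after 3VO and 5870 ± 730 after sham surgery at 3 d. The further Tgfbr3 probe set went the other way and overlapped between groups (log2 -0.30, adjusted p = 0.865). Of 48 vascular tone genes 3 (6.25%) were lower with no overlap, near the 5.61% over all genes. Higher with no overlap were 9 (18.8%) of the 48, against 10.1% over all genes, and the list's median was 0.23. The inducible nitric oxide synthase Nos2 had the widest difference of them, at 4333, 804 and 4046 after 3VO at 3 d and 164, 363 and 175 on intact arrays (log2 3.37, SE 0.76, adjusted p = 0.1). Signals were 288 to 434 on sham arrays at 3 d and 172 to 275 on 3VO arrays at 24 h. Sham arrays at 24 h read 314, 2047 and 3352, so high values were not limited to 3VO at 3 d. The calcium release channel Itpr1 differed by -0.97 (adjusted p = 0.133), and its intact arrays were spread from 21572 to 51977. The haem oxygenase Hmox1 was high on 1 array, 3VO replicate 2 at 20432, with 3279 and 5291 on the others and 1888 to 2941 on intact arrays.

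The remaining genes that rose, apart from Zdhhc20, were chosen after their values were seen. The protein acyltransferase gene Zdhhc20 rose 3.19-fold, from 1061, 1486 and 993 to 3702, 4205 and 3361 (limma adjusted p = 0.0317). Its sham arrays at 3 d read 1895 to 3226, between the groups, whereas its 3VO arrays at 24 h, at 1159 to 1649.6, were near the intact ones. Acbd3, a Golgi protein, stood at 5003 ± 1258 after 3VO at 3 d, 4418 ± 320.0 after sham at 3 d and 2071 ± 214 in intact arteries. The RNA decay factor Zfp36l2 stood at 2314 ± 171, 2187 ± 239 and 973 ± 99 in the same order, and the G protein subunit Gnai2 at 24360.1 ± 4283, 22727 ± 1255 and 11708 ± 2887. In these 3 genes the sham mean lay close to the 3VO mean. Acbd3 and Zfp36l2 passed by a dimmer probe set, and their brightest ones overlapped between groups (log2 0.23, adjusted p = 0.569, and 0.21, adjusted p = 0.59). Medag, Atp1b2, Apbb1ip and Efnb1 rose by 0.87, 1.01, 0.88 and 1.68 on the log2 scale, with adjusted p between 0.0349 and 0.0459. Atp1b2 is a subunit of the sodium pump and Efnb1 an ephrin ligand. The brightest Efnb1 probe set overlapped between groups (log2 0.55, adjusted p = 0.388). Nipal1 was at 19, 29 and 55 on intact arrays, under the signal minimum of 100, and at 743, 313 and 514 after 3VO, so its log2 difference of 3.40 rests on the pseudocount. The 3 probe sets with no gene, 1377092_at, 1377251_at and 1392566_at, were higher by 1.12, 2.78 and 1.43. Of the 3 with several genes, 1370892_at and 1388557_at were higher by 1.12 and 1.09, and 1389334_at fell by 0.81.

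**Figure D4:**
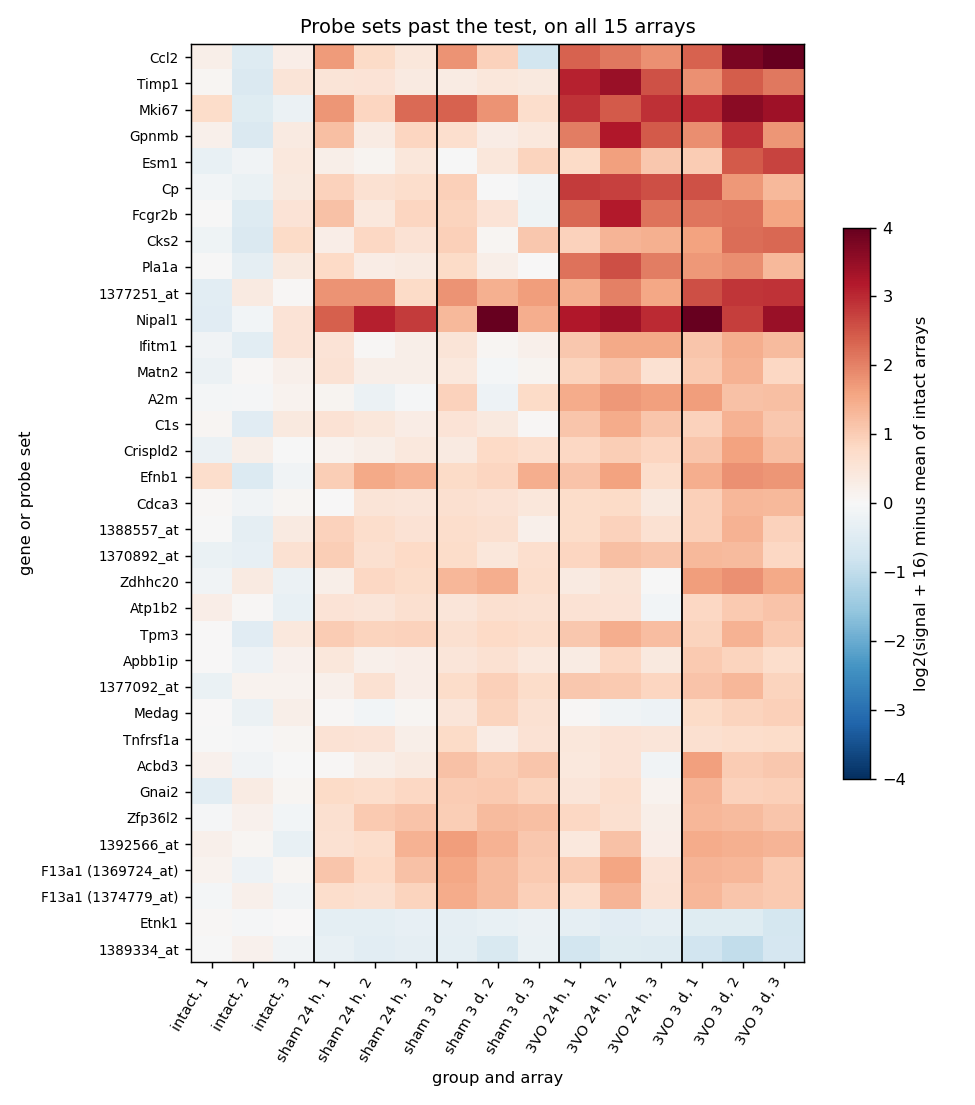
Log2(signal + 16) minus the intact mean for the 35 probe sets that passed, on all 15 arrays, ordered by the difference between 3VO and sham at 3 d. Ccl2 (log2 2.83 against sham) is at the top and F13a1 (-0.07), whose sham arrays at 3 d look like the 3VO arrays, is near the bottom.

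Etnk1, which makes phosphoethanolamine for membrane lipids, was the single named gene that fell. It read 22035, 20806 and 21658 on intact arrays and 15413, 15345 and 13223 after 3VO at 3 d, 1.47-fold lower (log2 -0.56, -0.76 to -0.35, limma adjusted p = 0.0349). Sham arrays at 3 d, from 16608 to 18362, lay between the groups without touching either. The calcium pump Atp2a2 (log2 -0.86) and Fbxo9 (-0.90), both at an adjusted p of 0.0603, lay just outside the threshold.

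Of 51 respiratory chain genes of mitochondria 48 were lower, by a small amount. Of the 51, 20 (39.2%) were lower with no overlap against 5.61% over all genes, and 0 passed limma's test. At an unadjusted p under 0.05, 15 were lower, against 524 of 10360 genes, and the median log2 difference was -0.24. The complex I subunit Ndufs3 read 15624, 13338 and 15679 on intact arrays and 9826, 10052 and 10624 after 3VO (log2 -0.55, -0.82 to -0.27, adjusted p = 0.107), with 13029 ± 1897 after sham at 3 d. Ndufb2 (-0.45) and the complex IV subunit Cox5b (-0.43) had sham means at 3 d of 17261 ± 1359 and 34164 ± 4896, close to their 3VO means of 17133 ± 607 and 33351 ± 3225. The median was -0.25 with the neuron covariate, -0.14 when the array number was a covariate, and -0.28 to -0.17 with any array left out. Of 36 glycolysis and hypoxia genes 4 (11.1%) were higher and 4 (11.1%) lower with no overlap, against 10.1% and 5.61% over all genes, with the glycolytic enzymes Aldoa at -0.47 and Pfkm at -0.53. Medians were -0.06 for cholesterol synthesis, -0.02 for chaperones, 0.17 for glucocorticoid response, -0.02 for clock genes and 0.20 for immediate early genes. With any array left out they ran from -0.14 to -0.03, -0.07 to 0.11, 0.08 to 0.22, -0.09 to 0.05 and 0.09 to 0.30 in that order, so that chaperones and clock genes turned sign. The last 3 lists include Fkbp5 (0.28), Per1 (-0.17) and Egr1 (-0.15), which overlapped between groups. No member of these 5 lists passed.

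**Figure D5:**
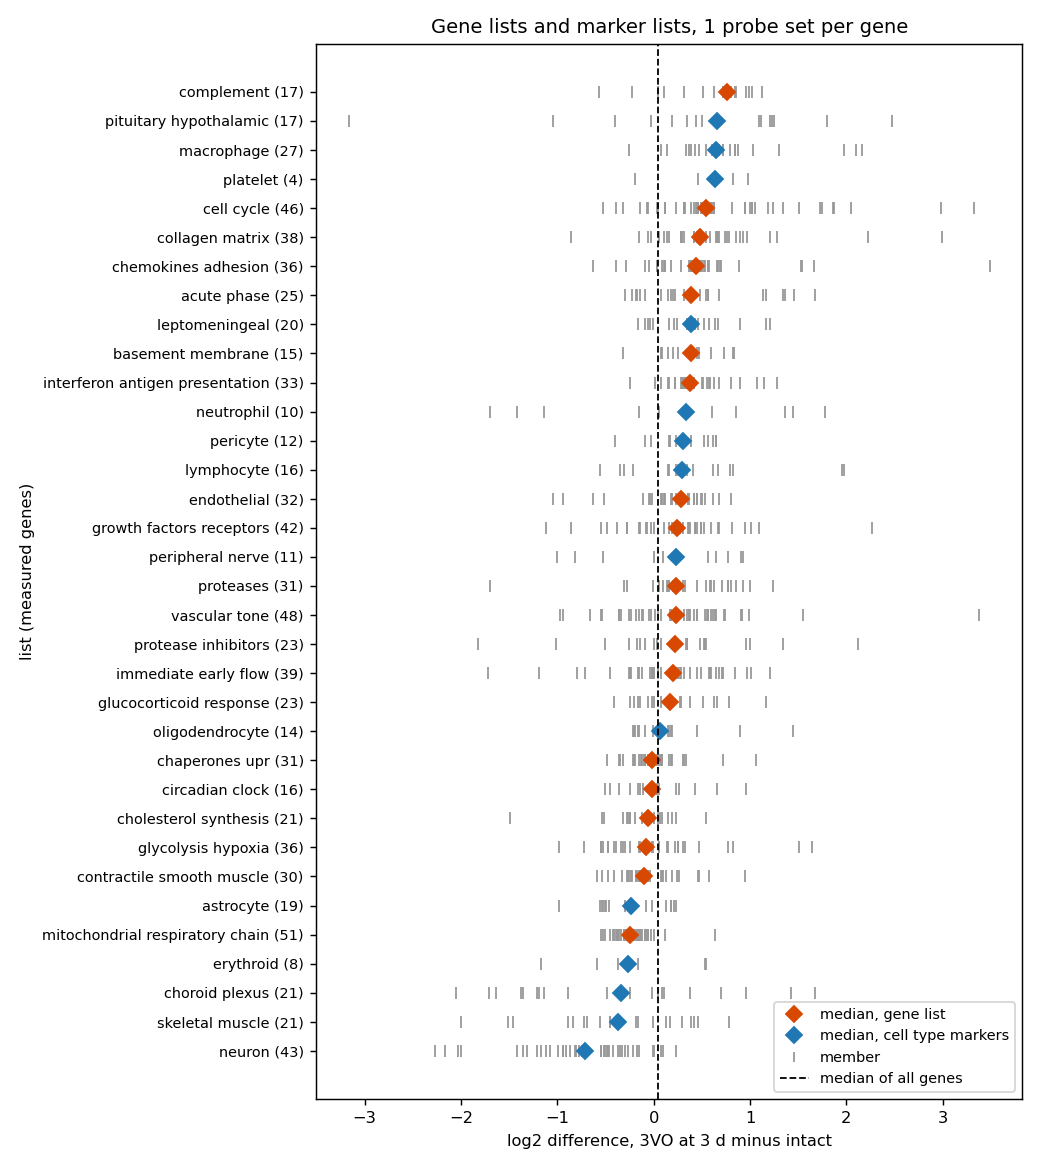
Log2 difference (3VO at 3 d minus intact) of the measured genes of each gene list and marker list, with 1 probe set per gene. Grey ticks are genes, diamonds are list medians and the dashed line is the median of all genes (0.05). Medians of complement (0.76), pituitary and hypothalamic (0.65), macrophage (0.65), platelet (0.64) and cell cycle (0.55) lists lie to the right. The neuron median (-0.71) lies to the left.

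Apart from Gpnmb and Fcgr2b of the macrophage list, no member of the 14 marker lists passed the test. Neuron markers were lower in 39 of 43 cases with a median of -0.71. Of the lower ones 9 had an unadjusted p under 0.05, against 524 lower of 10360 genes. The calcium-binding Calb1 was the 1 marker (2.33%) lower with no overlap, below the 5.61% over all genes. With any array left out the list's median ran from -1.01 to -0.31. It was -0.99 for sham at 3 d minus intact and 0.20 for 3VO minus sham at 3 d. The list mean was 0.69, 0.01 and -0.70 on intact replicates 1 to 3 and -0.53, -1.43 and -0.29 after 3VO, so intact arrays alone spanned a wide range. Choroid plexus markers had a median of -0.34 with summed signals of 249943 to 880504 on intact arrays and 294019 to 496885 after 3VO, and the median turned sign when single arrays were left out (-0.63 to 0.06). Erythroid markers had a median of -0.26 with sums of 230561 to 351220 and 183874 to 281767, and this median turned sign as well (-0.35 to 0.03). The erythroid median was 0.68 for sham at 3 d minus intact and -0.78 for 3VO minus sham at 3 d. None of these markers was at 0. Without the 2 arrays richest in choroid plexus markers (intact replicate 2 and sham replicate 3 at 3 d) 7 probe sets passed, and with the erythroid mean as a covariate 90 (74 higher and 16 lower). Pituitary and hypothalamic markers were higher in 13 of 17 cases with a median of 0.65. Of them 0 were higher with no overlap, against 10.1% over all genes. The hormone genes Prl and Gh1 of the pituitary overlapped between groups, with Gh1 at 24591 on 3VO replicate 2 and 3294 or less on the other 5 arrays. Leptomeningeal markers were higher in 15 of 20 cases with a median of 0.39, and 0.40 for sham at 3 d minus intact. With no overlap 2 (10%) were higher, near the 10.1% over all genes. Skeletal muscle markers had a median of -0.38 (14 of 21 lower), which turned sign when single arrays were left out (-0.62 to 0.17). The lists share members, as Lum and Dcn are also matrix genes and Lbp is both a choroid plexus and an acute phase gene. Beyond the fits with these covariates, the part of such tissue in the results was not tested.

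The count of 35 depended on single arrays. It was 13, 0 and 7 without 3VO replicate 1, 2 or 3 at 3 d, and 5, 4 and 258 (192 higher and 66 lower) without intact replicate 1, 2 or 3. Intact replicate 3 was the highest of the intact arrays for 21 of the 33 higher probe sets. Arrays of other groups enter the shared estimate of the spread, and the count was 5, 6, 23 and 21 without sham replicate 2, 3 or 1 at 24 h or 3VO replicate 1 at 24 h. When the mean of the neuron markers entered as a covariate, 0 probe sets passed limma's test. Timp1 then had an adjusted p of 0.0762, within a range of 0.000209 to 0.258 over all alternatives, and its log2 difference went from 2.12 to 1.89. The 6 arrays fitted alone also gave 0, median centring gave 2 and a fit without the variance trend 4. Intact arrays carry the last array numbers of the series, 13 to 15, and 3 probe sets passed with the array number as a covariate. Without sham replicate 1 at 3 d, whose treatment text is in doubt, 34 passed. Of the genes named above, Mki67 passed in 23 of the 31 alternative fits, Gpnmb and Pla1a in 20, Ccl2, Fcgr2b, A2m and Ifitm1 in 17, F13a1 in 15, C1s in 14, Etnk1 and Esm1 in 13 and Cks2 in 11. The log2 differences themselves kept their sign for each of the 35 probe sets in each of the 31 alternative fits in which they were tested.

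Comparisons that share arrays with this one called fewer probe sets at 3 d. 3VO against sham at 3 d, which is also the test of whether 3VO and sham differ in their distance from intact, had 0 probe sets past limma's test, also without sham replicate 1, and 745 (4.73%) with an unadjusted p under 0.05. Sham at 3 d against intact had 0 and 2236 (14.2%), and 184 passed without intact replicate 3. 3VO at 3 d against 3VO at 24 h had 0 and 907 (5.76%). 3VO at 24 h against intact had 29 past the test (0.184%), 28 higher (0.178%) and 1 lower (0.00635%), and 1567 (9.96%) with an unadjusted p under 0.05. So no single gene was shown to differ between 3VO and sham at 3 d, or between both times of 3VO, and the intervals given above show which sizes remain possible. For sham at 3 d minus intact, list medians were 0.54 for basement membrane, 0.42 for collagen and matrix and 0.26 for protease inhibitor genes. For 3VO at 3 d minus intact these were 0.39, 0.48 and 0.22. Macrophage, complement and cell cycle medians were 0.20, 0.16 and 0.22 for sham, below the 0.65, 0.76 and 0.55 for 3VO. Exact permutation of 3 against 3 arrays cannot give a 2-sided p below 0.1 for any single gene, so no such test was added.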

How the data were processed

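Pooled RNA was measured on 15 Affymetrix Rat230A arrays in 5 groups of 3. The labels do not settle whether the arrays of a group hold separate pools. The deposited table holds linear array intensity from GCOS, which the authors normalized per array, per the labels. Their stated target is 500, and the trimmed mean found here was 5000 on every array, 10 times as high. Which GCOS version was used is not given in the sources read. Genes were named from the platform table, with 12783 probe sets assigned to 1 gene, 312 to several and 2771 to none.

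Signals were taken as log2(signal + 16). Probe sets had to reach 100 on 3 or more arrays (15737 of 15923, without 57 controls). limma 3.58.1 in R 4.3.3 fitted 5 group means to all 15 arrays (10 residual and 4.83 prior degrees of freedom, variance trend). Tests were 2-sided, with Benjamini-Hochberg adjustment over all probe sets and a threshold of 0.05. Intervals are 95%, levels are linear means ± SD (3 arrays), and folds are back-transformed log2 differences. Lists were not tested and used 1 probe set for each of 10360 genes, the brightest.

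Named genes were up to 15 in each direction with the largest change among brightest single-gene probe sets that passed with no overlap and a mean of 1000 or more in the higher group, the 4 smallest p of each of 20 gene and 14 marker lists, and a fixed list. The comparison, lists and rule were chosen with earlier results of these data known. Alternatives were pseudocounts of 1 and 64, other signal minimums, other normalizations and fits, covariates and leaving out each array. The fit was tested on simulated data.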

Additional observations from a re-analysis of the deposited data

How the results depend on the processing

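The count of 35 (33 higher, 2 lower) was 34 to 36 with pseudocounts of 1 or 64, no signal filter, a minimum of 300, or a minimum of 1000 with a pseudocount of 160. It was 28 with array weights, and 27 after quantile normalization (26 higher, 1 lower). It was 22 (21 and 1) with the brightest probe set per gene, where fewer probe sets are tested. It was 2 (2 and 0) after median centring, 4 (4 and 0) without the variance trend, 3 (3 and 0) when the array number was a covariate, and 0 (0 and 0) with the neuron list, with neuron and choroid plexus lists, or with the groups of the contrast alone. The cause was not tested. A pair of alternatives was chosen after seeing the data: without the 2 arrays richest in choroid plexus markers it was 7 (7 and 0), and with the erythroid list as a covariate 90 (74 and 16). With any array left out the count ran from 0 to 258, higher ones from 0 to 192 and lower ones from 0 to 66.

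For 3VO against sham at 3 d, the count of 0 became 1 with the groups of the contrast alone, the array number or the erythroid list, 7 with the neuron list and 8 with both lists, and ran from 0 to 1 with any array left out. For sham at 3 d against intact it became 1 without the 2 arrays richest in choroid plexus markers and ran from 0 to 184. For 3VO at 3 d against 24 h it became 4 with array weights and 1 with the brightest probe set per gene, and ran from 0 to 2. No named gene that passed changed sign in the 31 fits. Of single-gene values over these fits, 246 lost and 57 gained the threshold. Low signals, such as those of Mki67 and Nipal1 in intact arteries, limit the precision of the largest differences. No paired analysis was possible because the array numbers of the labels run over the whole series and no replicate number is shared between groups.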
